A study of Mus musculus with 11 samples.

Results

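The epithelium of the distal colon takes up chloride and secretes bicarbonate, and 10 genes of that exchange and of its acid-base supply were followed here: the anion and bicarbonate transporters Slc26a3, Slc26a2 and Slc4a4, the sodium-proton exchangers Slc9a2 and Slc9a3, the chloride channel gene Cftr, and the carbonic anhydrase genes Car1, Car2, Car4 and Car12. They were taken by gene symbol from a table of 22243 genes, and all 10 were listed in it. RNA was measured in full-thickness distal colon of 5 Nrg4-/- mice (KO) and 6 wild-type mice (WT). Nrg4 encodes neuregulin-4, a secreted growth factor that binds the receptor ErbB4. The genotypes shared cages from 9 weeks of age, the mice were dissected at 11 to 12 weeks, and no other treatment is named. Cage A held KO-1, KO-8, WT-5 and WT-7, cage B held KO-4, KO-9, WT-2 and WT-11, and cage C held KO-3, WT-6 and WT-10. The labels say that males and females were used but do not say which mouse was which, and they do not say how the Nrg4 allele was made.

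In surface colonocytes, an apical chloride-bicarbonate exchanger works beside an apical sodium-proton exchanger, so that sodium chloride is absorbed while bicarbonate and protons leave the cell. Carbonic anhydrases hydrate carbon dioxide and so supply both ions. In crypts, the cAMP-gated channel CFTR lets chloride and bicarbonate out of the cell, and the basolateral sodium-bicarbonate cotransporter encoded by Slc4a4 brings bicarbonate in. Loss of SLC26A3 in humans causes congenital chloride diarrhoea, and loss of CFTR causes cystic fibrosis.

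Only principal transcripts are listed, and their summed abundance per mouse ranged from 558446 to 770986 TPM (transcript abundance per length and library total). The depth of each library in reads is not known. In the authors' deposited table the mean natural log of the estimated count over mice was 9.66 for Slc26a3, 6.99 for Cftr and 3.50 for Car12. Mitochondrially encoded genes took 19.0% of the sum in KO-1 and 42.9% in KO-3, and mt-Co1 led the table in 10 mice but Sprr2a2, an epithelial gene, led in WT-7. Nrg4 was listed at 0 TPM in every KO and every WT mouse, so its level did not check the genotype labels. All 10 general epithelial markers and 9 of 10 surface colonocyte markers reached 1 TPM in at least 5 mice. The surface colonocyte markers summed to between 18656 and 20793 TPM in KO and between 16321 and 22773 TPM in WT. The distal position markers, Hoxb13 the most abundant of them, summed to between 283.3 and 345.4 TPM in KO and between 280.2 and 373.4 TPM in WT. In such bulk tissue, fewer cells of a type and less RNA per cell cannot be told apart.

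Promoter windows of 250 bases before a transcript start were found for 6 of the 10 genes in the RefSeq table (GRCm38.p6, the assembly also named mm10). The windows of Slc26a3 and Car4 are shown because these genes varied together over the 11 mice, and that of Cftr because it did not vary with them. Each is on the plus strand, 5′ to 3′, and capitals mark TATAAA.
Slc26a3, chr12:31437969-31438218: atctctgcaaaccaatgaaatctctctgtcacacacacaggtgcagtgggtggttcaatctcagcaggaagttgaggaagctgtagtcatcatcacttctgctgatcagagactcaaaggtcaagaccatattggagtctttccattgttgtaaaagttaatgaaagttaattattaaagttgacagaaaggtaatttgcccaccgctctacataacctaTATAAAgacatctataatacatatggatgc
Car4, chr11:84957504-84957753: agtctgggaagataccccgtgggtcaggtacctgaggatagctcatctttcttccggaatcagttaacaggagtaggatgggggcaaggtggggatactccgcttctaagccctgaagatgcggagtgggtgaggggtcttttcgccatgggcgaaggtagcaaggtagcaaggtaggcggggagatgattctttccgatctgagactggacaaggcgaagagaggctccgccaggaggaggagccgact
Cftr, chr6:18170437-18170686: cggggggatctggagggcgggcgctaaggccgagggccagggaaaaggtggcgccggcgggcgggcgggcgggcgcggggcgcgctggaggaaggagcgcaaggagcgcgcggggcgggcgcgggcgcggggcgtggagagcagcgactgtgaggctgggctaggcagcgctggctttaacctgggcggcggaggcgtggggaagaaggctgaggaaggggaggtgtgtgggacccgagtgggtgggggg

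The Slc26a3 window was AT-rich, with 38.8% G and C, against 56.4% for Car4, 76.4% for Cftr and a median of 52.4% over all 32851 windows. It held TATAAA once, 30 bases before the start, and the opposite strand of the same letters held TTTAT, the core bound by Cdx homeodomain factors. Both strands were searched. TATAAA occurred in 12.4% of all windows and the Cdx core in 37.3% of them. The GATA motif, searched as AGATAA, occurred in 9.99%. The HNF4 motif, searched as CAAAGTCCA, occurred in 0.38%. The other 6 windows of the genes, which include 2 starts of Slc4a4 and those of Car12 and Slc9a3, had no match to any of these motifs.

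The 10 genes differed widely in level, and their order by mean TPM was the same in KO and in WT. Car1 was highest, with 1764 ± 774 TPM (SD, n = 11 mice, the 44th gene of the table), then Car4 with 1543 ± 404 (the 53rd), Car2 with 901.3 ± 250.1 (the 109th) and Slc26a3 with 568.6 ± 194.6 TPM (the 164th). Slc26a2 had 103.2 ± 40.8 TPM, Slc9a2 50.3 ± 10.9, Cftr 16.9 ± 4.07, Slc4a4 13.3 ± 2.31 and Car12 1.38 ± 0.906 TPM over the same mice. Slc9a3 came last, near 0 (the 17258th). Each gene exceeded the next one in all 11 mice, except that Car1 exceeded Car4 in 8, Cftr exceeded Slc4a4 in 9 and Car12 exceeded Slc9a3 in 10. The order of Car1 and Car4, and that of Cftr and Slc4a4, thus varied between mice, and it was not tested. Among the 9 genes tested, the coefficient of variation over mice ran from 17.4% for Slc4a4 to 43.9% for Car1 and 65.7% for the scarce Car12, against a median of 20.3% for all genes tested.

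**Figure D1:**
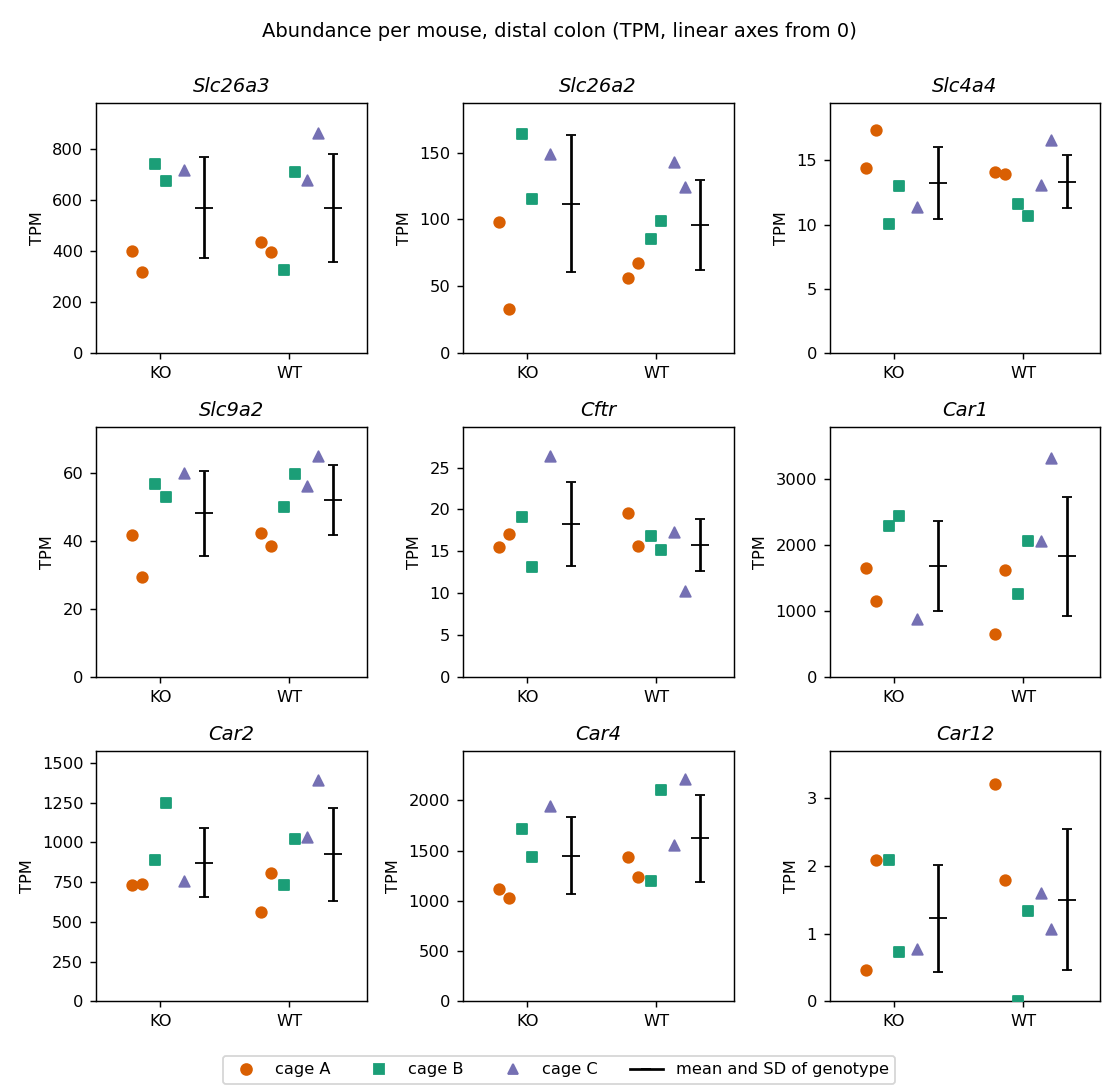
Abundance of 9 genes in TPM (vertical axes, linear from 0) for each KO mouse (left) and WT mouse (right), with colour and shape giving the cage and bars the mean and SD of the genotype. KO and WT values overlap in every panel, and the cage A points of Slc9a2 lie below all others.

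The main question of the design was whether KO differed from WT. None of the 9 genes that passed the filter on low values (at least 1 TPM in at least 5 mice) was called at a false discovery rate (FDR) of 0.05 by limma with terms for cage and genotype, where 0.0372% of all 10756 genes tested were called. At an unadjusted p of 0.05 the count was also 0, against 3.1% of all genes, and the smallest unadjusted p was 0.355. The fitted log2 fold change was above 0 for 3 genes and below 0 for 6, with a median of -0.014, against -0.011 for all genes tested. The signs of Slc4a4, Car1 and Car2 turned when values were scaled without mitochondrial genes or to epithelial markers. The adjusted p was 0.9999 for each of the 9 genes. In no gene were KO and WT values apart, against 0.223% of all genes.

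Slc26a3 (chromosome 12, 31390871 to 31473917, plus strand in GENCODE M21) encodes the main apical chloride-bicarbonate exchanger of the colon. It had 401.1, 317.8, 739.8, 673.4 and 718.4 TPM in KO-1, KO-8, KO-4, KO-9 and KO-3, against a lowest, median and highest value of 324.5, 555.8 and 862.9 TPM in WT. Low and high mice occurred in both genotypes. The means were 570.1 ± 196.0 TPM in KO (SD, n = 5) and 567.4 ± 212.1 TPM in WT (SD, n = 6), and the log2 fold change was 0.10 ± 0.21 (SE). Its 95% confidence interval reached from a fold of 0.776 to one of 1.49, on the scale of TPM + 0.5.

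Slc26a2 (chromosome 18, 61192919 to 61211612, minus strand), a sulfate transporter that also exchanges chloride, had 98.0, 33.4, 163.6, 115.6 and 148.8 TPM in the same KO mice, against 56.0, 92.3 and 142.9 TPM as the lowest, median and highest in WT. KO mice held both the lowest and the highest value. The log2 fold change was 0.22 ± 0.25 (fold interval 0.788 to 1.72). Slc4a4 (chromosome 5, 88886818 to 89239653, plus strand) was the least variable of the 9 genes tested, with 14.4, 17.3, 10.1, 13.0 and 11.4 TPM in KO, against 10.7, 13.5 and 16.6 TPM as the lowest, median and highest in WT. Its log2 fold change was -0.014 ± 0.12 (fold interval 0.821 to 1.20). The ratio of Slc26a3 to Slc26a2 abundance was 5.75 ± 2.19 in KO (SD, n = 5) and 6.04 ± 1.53 in WT (SD, n = 6).

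Of the sodium-proton exchanger genes, Slc9a2 (chromosome 1, 40680574 to 40769273, plus strand), which encodes the apical exchanger NHE2, had 41.8, 29.5, 56.9, 53.0 and 59.8 TPM in KO, against 38.6, 53.1 and 65.1 TPM as the lowest, median and highest in WT. The genotypes overlapped, and the log2 fold change was -0.076 ± 0.11 (fold interval 0.805 to 1.12), the narrowest interval of the 9. Slc9a3 (chromosome 13, 74121457 to 74169442, plus strand) encodes NHE3, the other apical exchanger. It was listed at 0 TPM in 10 mice and at 0.0844 TPM in KO-4. The table holds 1 of its 4 annotated transcripts, so the others are not in this value. The other genes share this limit, with 1 of 7 transcripts listed for Slc26a3, 1 of 8 for Slc4a4 and 1 of 6 for Cftr. Slc9a3 did not pass the filter and was not tested.

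Cftr (chromosome 6, 18170687 to 18322768, plus strand) had 15.5, 17.1, 19.0, 13.2 and 26.3 TPM in KO-1, KO-8, KO-4, KO-9 and KO-3, against 10.3, 16.2 and 19.6 TPM as the lowest, median and highest in WT. KO-3 stood above all other mice and WT-10 below them. The log2 fold change was 0.20 ± 0.20 (fold interval 0.838 to 1.57). Without KO-3 it was -0.056. The Slc26a3 to Cftr ratio, of an absorptive to a secretory gene, ran from 18.6 to 51.1 in KO and from 19.2 to 84.2 in WT.

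The carbonic anhydrases were the abundant part of the group. Car1 (chromosome 3, 14766216 to 14808368, minus strand), a cytosolic enzyme, had 1660, 1149, 2285, 2445 and 882.8 TPM in KO-1, KO-8, KO-4, KO-9 and KO-3, against 648.5, 1846 and 3312 TPM as the lowest, median and highest in WT. Its log2 fold change of -0.025 ± 0.37 had a wide fold interval, 0.551 to 1.75. Car2 (chromosome 3, 14886273 to 14900770, plus strand), the fast cytosolic enzyme, had 733.4, 740.8, 889.2, 1249 and 755.6 TPM in KO, against 560.1, 914 and 1392 TPM as the lowest, median and highest in WT, and a log2 fold change of -0.0093 ± 0.19. Car4 (chromosome 11, 84957786 to 84966044, plus strand), the enzyme anchored on the apical membrane, had 1121, 1031, 1715, 1437 and 1945 TPM in KO, against 1196, 1493 and 2207 TPM as the lowest, median and highest in WT, and a log2 fold change of -0.10 ± 0.16. KO and WT overlapped in all of these.

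Car12 (chromosome 9, 66713686 to 66766845, plus strand), a membrane-bound enzyme, stayed at 3.21 TPM or below. It had 1.23 ± 0.795 TPM in KO (SD, n = 5) and 1.504 ± 1.05 TPM in WT (SD, n = 6), and its fold interval was 0.442 to 1.90. It lies 11.39 Mb from Nrg4 on the same chromosome. Together the 4 anhydrases made up 0.606 ± 0.139% of the summed TPM in KO and 0.677 ± 0.192% in WT (SD, n = 5 and 6). Car1 led the 4 in 8 mice, and Car4 led in KO-3, WT-5 and WT-11.

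The authors' deposited table gives a q-value of 1 for each of the 10 transcripts of these genes that carry one, and p-values from 0.446 for Cftr to 1. Of 14763 transcripts with a q-value there, 5 were below 0.05.

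**Figure D2:**
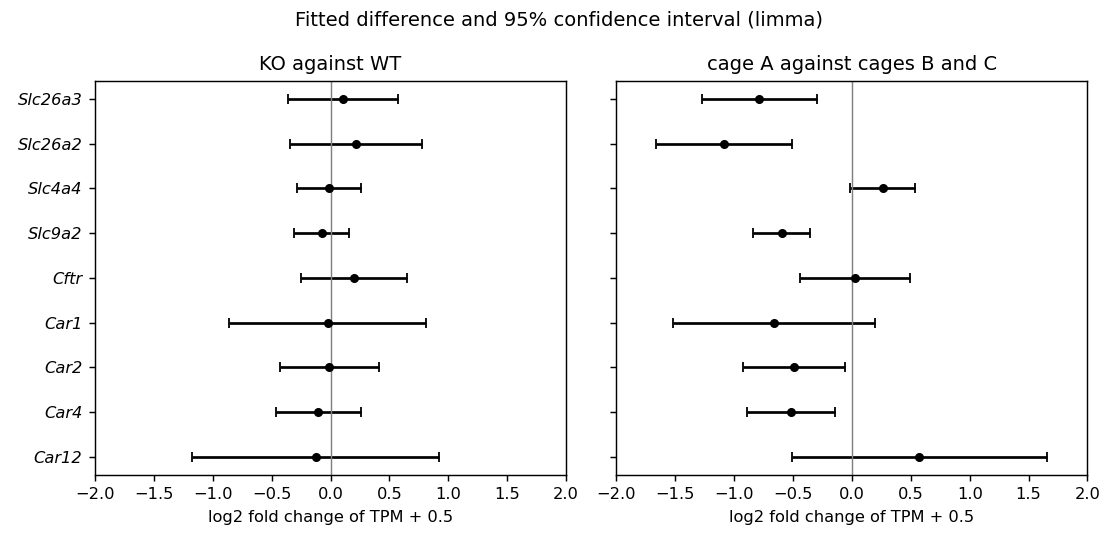
Log2 fold change of TPM + 0.5 (horizontal axes) with 95% confidence intervals from limma for KO against WT (left) and for cage A against cages B and C (right), 1 row per gene. All intervals on the left span 0, while those of Slc26a3, Slc26a2, Slc9a2, Car2 and Car4 on the right lie below 0.

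The labels also give the cage, so the cages were compared over both genotypes. Cage A was set against the others because earlier results of these data had shown Y-linked genes splitting it from them. In cage A, which had the high Y-linked Eif2s3y (21.5 to 31.8 TPM, against 0.0523 TPM at most in cages B and C), 5 of the 9 genes were lower than in cages B and C at an unadjusted p of 0.05 and none was higher. Of all genes, 7.61% were lower at that level, 9.83% were higher and 17.4% differed either way. At an FDR of 0.05 the count was 0, where 0.0465% of all genes were called. Cage A and male sex cannot be told apart here. The median log2 fold change of the 9 genes was -0.52, against 0.027 for all genes tested.

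Slc9a2 had the smallest p. It had 41.8, 29.5, 42.3 and 38.6 TPM in KO-1, KO-8, WT-5 and WT-7 of cage A, against a lowest, median and highest value of 50.0, 56.9 and 65.1 TPM in the 7 mice of cages B and C. All cage A mice were below all others, an arrangement seen in 1.66% of all genes, while 2.38% were wholly above and 4.04% apart either way. It was the only one of the 9 genes with no overlap. The means were 38.1 ± 5.94 TPM in the 4 mice of cage A, against 57.3 ± 4.93 TPM in the 7 mice of the other cages (both SD). The limma log2 fold change was -0.60 ± 0.11, the 22nd smallest p of 10756 genes, with an adjusted p of 0.114.

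Slc26a2 differed by the largest amount, with 63.7 ± 26.9 TPM in the 4 mice of cage A, against 125.7 ± 28.0 TPM in the 7 mice of the other cages (both SD). Its limma log2 fold change was -1.08 ± 0.26 with an adjusted p of 0.149, and KO-1 of cage A, at 98.0 TPM, was above WT-2 of cage B, at 85.4 TPM. Slc26a3 had 387.6 ± 49.6 TPM in cage A and 672.0 ± 166.0 TPM in the other cages, a limma log2 fold change of -0.79 ± 0.22 with an adjusted p of 0.163. WT-2, at 324.5 TPM, was the only mouse of cages B and C within the cage A range. Without WT-2 the Slc26a3 log2 fold change was -0.92 with an adjusted p of 0.0367, so this 1 mouse decided the call. Over all alternatives run, its adjusted p ran from 0.0367 to 0.353.

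Car4 followed with 1205 ± 174 TPM in cage A and 1737 ± 369 TPM in the other cages, and a log2 fold change of -0.52 ± 0.17. Car2 had 710.0 ± 105.0 TPM in cage A and 1011 ± 246 TPM in the other cages, and a log2 fold change of -0.49 ± 0.20. Their limma adjusted p values were 0.190 and 0.248. Car1 had 1272 ± 477 TPM in cage A and 2044 ± 794 TPM in the other cages. Its log2 fold change of -0.66 ± 0.39 had an unadjusted p of 0.118 in the limma model and ran from -1.04 to -0.30 with 1 mouse left out. Car12 had 1.89 ± 1.13 TPM in cage A and 1.09 ± 0.678 TPM in the other cages, a log2 fold change of 0.57 ± 0.49. Slc4a4 had 15.0 ± 1.61 TPM in cage A and 12.4 ± 2.18 TPM in the other cages, at an unadjusted p of 0.0657 in the limma model. Cftr was 16.9 ± 1.90 TPM in cage A and 16.9 ± 5.08 TPM in the other cages. In the F test over the 3 cages, 4 genes had an unadjusted p below 0.05, against 12.1% of all genes, and none passed the FDR, as for all genes tested.

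Marker sums and the mitochondrial share by cage stand beside this. Surface colonocyte markers summed to 18691 ± 787 TPM in cage A and 20247 ± 2070 TPM in the other cages, and to 16321 TPM in WT-2, the lowest of all mice. Lypd8, at 10788 to 15210 TPM over the 11 mice, made up most of that sum. Single markers went either way. Guca2a had 643.6 to 1098 TPM in cage A and 363.4 to 726.1 TPM in the other cages. Saa1 had 2535 to 2971 TPM in cage A and 2747 to 4714 TPM in the other cages. The mitochondrial share was 19.0% to 24.7% in cage A and 22.3% to 42.9% in cages B and C. Smooth muscle markers, for which 5 of 6 were in the table, ranged from 2754 to 5137 TPM in cage A and from 2565 to 3995 TPM in the other cages. Erythrocyte markers summed to 74.8 ± 41.8 TPM in cage A and 35.7 ± 13.9 TPM in the other cages. Enteric neuron and glia markers, of which 3 of 6 reached 1 TPM in at least 5 mice, summed to 10.6 ± 2.06 TPM in cage A and 15.0 ± 3.48 TPM in the other cages. The part of these measures in the cage difference was not tested. General epithelial markers summed to 11730 ± 1022 TPM in cage A and 10780 ± 1544 TPM in the other cages. Scaled to the geometric mean of these markers, not to their sum, the cage A log2 fold change was -0.71 for Slc9a2, -0.90 for Slc26a3 and -1.20 for Slc26a2. It was -0.63 for Car4, -0.61 for Car2, -0.77 for Car1, -0.084 for Cftr, 0.15 for Slc4a4 and 0.50 for Car12. The median over all genes tested was then -0.079, against 0.027 without this scaling. The scaling divides all genes of a mouse by the same factor, so it moves them nearly alike.

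**Figure D3:**
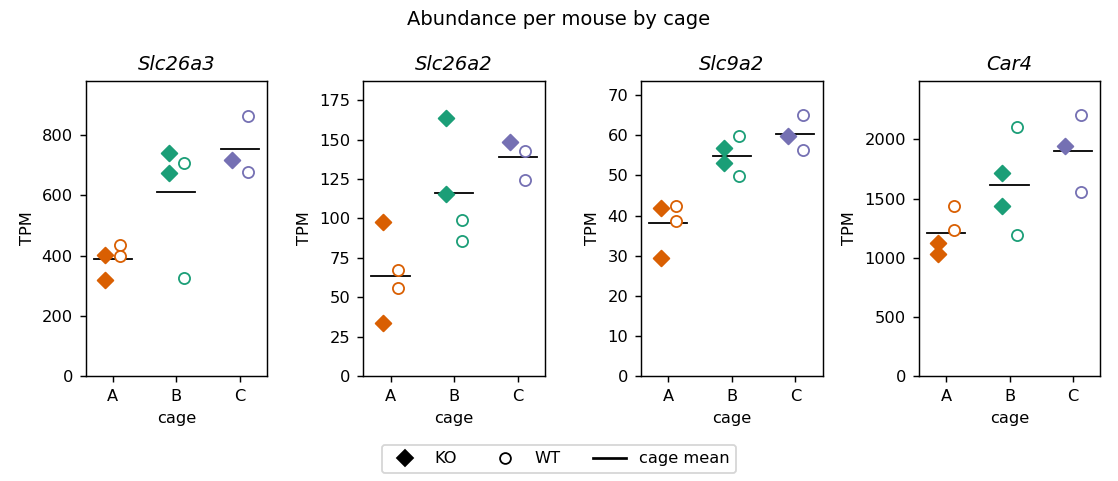
Abundance in TPM (vertical axes, from 0) by cage for Slc26a3, Slc26a2, Slc9a2 and Car4, with filled diamonds for KO mice, open circles for WT mice and a line at the cage mean. Cage A is lowest on average in each panel, and the open circle at 324.5 TPM for Slc26a3 in cage B is WT-2.

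Whether the genotype difference varied between cages was tested as an interaction. No gene of the group was called, where 0.0186% of all genes were called, and Car1 alone had an unadjusted p below 0.05 (0.0337, limma adjusted p 0.9999), against 3.97% of all genes. The KO minus WT difference of Car1 on the log2 scale was 0.43, 0.55 and -1.57 in cages A, B and C. Car2 gave 0.13, 0.29 and -0.67 and Cftr -0.10, -0.011 and 0.96 in the same cages. Cage C has 1 KO mouse, KO-3, which was below both WT mice for Car1 and Car2 and above both for Cftr. KO-3 also had the lowest sums of general epithelial markers (8248 TPM) and goblet cell markers (3480 TPM) and the highest mitochondrial share. Their part in its anhydrase values was not tested. Without cage C the KO against WT log2 fold change of Car1 was 0.49, and it was not called.

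Car1 was the only gene of the group with 2 principal transcripts. The minor one, ENSMUST00000094365.10, made up 1.46% to 17.2% of Car1 abundance in KO and 0.546% to 15.9% in WT. Its KO against WT log2 fold change was 0.43 by itself, and it was not called. Red blood cells also hold Car1 and Car2. Of 7 erythrocyte markers 4 reached 1 TPM in at least 5 mice, all of them globins, and the sum was 30.7 to 128.1 TPM in KO and 16.1 to 57.7 TPM in WT, while Alas2 and Slc4a1 were at or near 0.

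Across mice some of the genes varied together. The correlations are descriptions without a test, since all values share the same libraries and cage A differs from the other cages. Slc26a3 correlated with Car4 (Pearson r = 0.90 over 11 mice, 0.82 over the 7 mice of cages B and C), with Slc9a2 (0.86 and 0.82) and with Slc26a2 (0.80 and 0.68). Slc26a2 and Slc9a2 correlated at 0.89 over all mice and at 0.42 within cages B and C, and Slc9a2 and Car4 at 0.87 and 0.97. Slc26a2 and Car4 were less alike, at 0.66 and 0.36. Slc26a3 also correlated with Car2, at 0.71 and 0.61. Car1 and Car2 correlated with each other at 0.90 and 0.88. Their genes lie 77.9 kb apart on chromosome 3 with Car3 between them and Car13 on the other side of Car1. Car3, at 0.805 to 35.5 TPM, and Car13, at 5.88 to 9.08 TPM, correlated with Car1 at -0.047 and 0.0033. Car1 and Cftr ran opposite ways, with r = -0.75 and -0.85, as did Car2 and Cftr, with -0.70 and -0.85. KO-3, with the highest Cftr, and WT-10, with the lowest, are both in cage C. Without these 2 mice r was -0.56 for Car1 and -0.65 for Car2 over the other 9, and -0.26 and -0.68 over the 5 left of cages B and C.

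**Figure D4:**
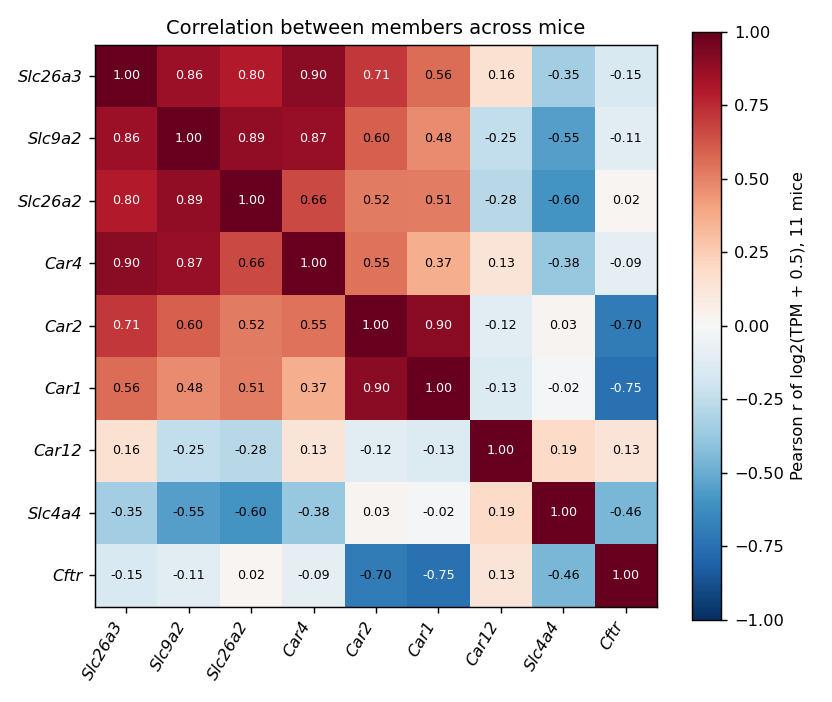
Pearson correlation of log2(TPM + 0.5) between 9 genes over 11 mice, from -1 (blue) to 1 (red), with each value printed. Slc26a3, Slc9a2, Slc26a2 and Car4 are red against one another (0.66 to 0.90), and so is Car1 against Car2 (0.90). Car1 and Car2 are also red against those genes, from 0.37 to 0.71. Cftr is blue against both Car1 and Car2.

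Of all genes tested, the one most like Slc26a3 across mice was Atp12a, the colonic proton-potassium pump, with r = 0.97 over 11 mice and 0.98 over the 7 of cages B and C. Ugt2b34 (0.95 and 0.93, in the same order) and Pls1 (0.94 and 0.89), which encodes a microvillus actin bundler, came next. Slc9a2 was most like Slc40a1, the iron exporter ferroportin (0.97 and 0.83), and Car1 was most like Cyp2c68 (0.96 and 0.96). Car2 was most like Glod5 (0.95 and 0.91), Car4 like Mmp15 (0.93 and 0.85) and Cftr like Trip11 (0.95 and 0.96). Slc26a2 was most like Gm4631 (0.96 and 0.89), Slc4a4 like Qsox1 (0.92 and 0.93) and Car12 like Zfr (0.97 and 0.95). Each was the highest r over 11 mice among the 10756 genes tested, leaving out the genes of the group. A maximum over so many genes in 11 mice can be high by chance, which was not tested.

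A wider list of ion and acid-base transport genes was set beside these. Of 60 listed genes, 59 were in the table and 35 were tested. In KO against WT none was called, 13 were higher and 22 lower, with a median log2 fold change of -0.042. Of all 10756 genes tested 4 were called, 5029 were higher and 5727 lower, with a median of -0.011. Chp2, a calcineurin-like partner of sodium-proton exchangers, had the smallest p, with 47.8 ± 23.6 TPM in KO (SD, n = 5) and 64.5 ± 24.1 TPM in WT (SD, n = 6), a limma log2 fold change of -0.40 ± 0.18 and an adjusted p of 0.9999. Of the relatives of Slc26a3, Slc26a6 stayed at 0.171 TPM or below and 1 of 7 anion exchangers reached the test. The most abundant other anhydrase was Car9, with 34.7 ± 4.91 TPM in KO and 36.7 ± 4.71 TPM in WT.

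By cage the same list was mixed, with 6 of the 35 genes lower in cage A and 5 higher at an unadjusted p of 0.05 and none called. Of all genes tested 7.61% were lower and 9.83% higher at that level. Atp1b1, the beta subunit of the sodium pump, had 666.9 ± 36.8 TPM in the 4 mice of cage A, against 928.6 ± 70.9 TPM in the 7 mice of the other cages (both SD). Its limma log2 fold change was -0.47 ± 0.08 with an adjusted p of 0.0918. Chp2 had 32.6 ± 6.15 TPM in cage A and 70.8 ± 18.6 TPM in the other cages, a limma log2 fold change of -1.04 ± 0.18 and an adjusted p of 0.104. Both genes were wholly below in cage A, as were 1.66% of all genes. For Chp2 the nearest values were 40.9 TPM in WT-5 and 41.7 TPM in KO-9. Atp12a had 140.1 ± 37.4 TPM in cage A and 236.1 ± 66.7 TPM in the other cages. Best2, a bicarbonate-permeable channel of goblet cells, had 27.7 ± 3.60 TPM in cage A and 38.5 ± 10.7 TPM in the other cages. Those other cages differed, with 43.5 ± 11.7 TPM in cage B, where WT-2 had 61.1 TPM, and 31.7 ± 3.86 TPM in cage C. KO-3 and WT-10 of cage C, at 30.7 and 28.5 TPM, lay within the cage A range of 24.2 to 32.4 TPM. Slc12a2, which loads chloride for secretion, had 44.7 ± 8.28 TPM in cage A and 49.0 ± 11.5 TPM in the other cages.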

How the data were processed

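Stranded polyadenylated RNA libraries of distal colon from 5 KO and 6 WT mice were read as single-end 75 nt reads, per the labels' protocols. The submitters' processing notes name CASAVA, kallisto, sleuth and mm10, with versions not given in the sources used here. The deposited table holds TPM per principal transcript, and, per the file headers, the authors' p-value, q-value, log2 ratio and mean natural log of estimated counts after normalization. Of 29213 rows, 405 repeats were dropped and TPM were summed by gene. The 10756 genes that reached 1 TPM in 5 or more mice were tested with limma 3.58.1 (R 4.3.3) on log2(TPM + 0.5), with a mean-variance trend, terms for cage and genotype, and Benjamini-Hochberg adjustment. The procedure was tested on simulated data. Log values compress the changes of scarce genes, and no counting interval is given because the table holds no counts per mouse. Replicates are separate mice. Coordinates are from GENCODE M21 (22241 of 22243 genes found).

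The 10 genes, all lists and the contrast of cage A with cages B and C were chosen with earlier results of these data known. The text names these genes, the 3 most alike genes of each (of which the first, or the first 3, are printed), and, of the wider list, some of those with the smallest p by genotype and by cage, the most abundant of each subgroup, and relatives. Alternatives were pseudocounts of 0.1 and 1, no filter, other scalings, no cage term, single transcripts, and omission of a cage or a mouse. Omission of KO-3 and WT-7 together, and of KO-3 and WT-10 from correlations with Cftr, was added after seeing the data. The value of 1 marker gene is not reported here.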

Additional observations from a re-analysis of the deposited data

Results flagged for a closer look

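In 4 of 38 groups of 4 to 6 mice, 1 mouse lay farther from the others than the 95% critical value of Dixon's test allows, where chance picks out about 1 group in 20. Among cage B mice, WT-2 had the lowest Slc26a3 value, 324.5 TPM. Among cage A mice, KO-8 had the highest Slc4a4 value, 17.34 TPM. Slc9a3 was listed at 0.0844 TPM in KO-4 and at 0 in the rest, among both the KO mice and the cage B mice. With every other value at 0 this outcome was fixed, and 2 of the 4 groups rest on this 1 value.

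The KO minus WT difference took opposite directions in different cages, with no overlap of the genotypes in either, for 2 genes. For Slc4a4 it was 0.17 in cage A and -0.36 in cage C on the log2 scale, a difference of 0.527. For Car1 it was 0.55 in cage B and -1.57 in cage C, a difference of 2.12. These cage pairs were picked for their directions and not tested singly. The share of all genes with such a pattern was not counted. With 1 or 2 mice per genotype in a cage, values of the genotypes are often apart by chance. For Slc4a4 in cage A the nearest values were 14.4 TPM in KO-1 and 14.1 TPM in WT-5. In the F test of the genotype by cage interaction the limma adjusted p was 0.9999 for both genes, and the KO arm of cage C is 1 mouse.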

How the results depend on the processing

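No paired analysis was possible because no mouse number is shared by the genotypes. No member was called for genotype, for the cage F test or for the interaction under any alternative run. The cage A contrast called 0 members, and 0 to 1 with 1 mouse left out. Over all genes, genotype calls numbered 4, against 2 without the filter, 1 without cage A, 1 without cage C, 3 without KO-3 and WT-7 and 2 to 4 with 1 mouse left out. Genotype log2 fold changes that turned sign were all uncalled. Under median-of-ratios scaling they were 0.00016 for Slc4a4 and 0.0052 for Car2. Scaled without mitochondrial genes they were 0.012 for Slc4a4, 0.0014 for Car1 and 0.018 for Car2, and scaled to epithelial markers 0.024, 0.014 and 0.030. Without cage C they were 0.10 for Slc4a4, -0.056 for Cftr, 0.49 for Car1, 0.21 for Car2 and 0.0053 for Car12. Without KO-3 and WT-7 they were 0.085, -0.11, 0.77, 0.33 and 0.046 for the same genes. Without cage A they were 0.020 for Car4 and 0.012 for Clca4b. With a pseudocount of 0.1 Car12 was 0.070. The minor Car1 transcript gave 0.43 for genotype and 0.41 for cage A. The cage A value turned to -0.084 for Cftr under epithelial scaling and was 0.44 for 1 transcript of Best2. With 1 mouse left out, genotype values ran from -0.12 to 0.20 for Slc26a3, -0.077 to 0.10 for Slc4a4, -0.13 to 0.012 for Slc9a2, -0.056 to 0.30 for Cftr, -0.28 to 0.49 for Car1, -0.12 to 0.21 for Car2, -0.23 to 0.00081 for Car4 and -0.54 to 0.19 for Car12. The cage A value of Cftr ran from -0.13 to 0.22. The cause was not tested. The table holds no counts per mouse, which limits what can be said of Car12 and Slc9a3, both near the filter or below it.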
